A study of Nicotiana tabacum with 9 samples.

Results

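Photosystem II is the thylakoid complex that uses light to take electrons from water and pass them to plastoquinone, releasing oxygen. Its manganese and calcium cluster lies on the lumen side and is shielded by extrinsic proteins encoded in the nucleus, whereas the reaction centre core, which includes the D1 and D2 proteins, is normally encoded in plastid DNA. Genes of this complex were taken as all those in the deposited table whose best Swiss-Prot match is named "Photosystem II" or "Oxygen-evolving enhancer", which gave 5 of the 123 genes listed. They comprise 3 oxygen-evolving enhancer proteins, the 10 kDa polypeptide of photosystem II, and 1 gene matched to the D2 protein.

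The plants were cigar tobacco (Nicotiana tabacum, an allotetraploid) of the variety H382 at the seedling stage, and RNA was taken from leaf. They were grown at 50, 100 or 200 µmol m-2 s-1 of light (light 50, light 100 and light 200), with 3 replicates of each and no other treatment named. The 9 libraries held between 12395758 and 16603534 reads counted to genes. The labels name 3 biological replicates per light intensity without saying how many plants each holds. The authors' deposited table marks 122 of its 123 genes as changed between light 50 and light 200. The genes were thus selected on these samples, and counts of changed members are not independent evidence of a light response.

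The first member, PSBO (Nitab4.5_0000108g0110), matches the oxygen-evolving enhancer protein 1 of tobacco, the manganese-stabilising subunit of the water-splitting site. It lies on the minus strand of Nt17 from 142208818 to 142210610. PSBP2 (Nitab4.5_0005601g0020; Nt11, plus strand, 70600764 to 70603430) matches the tobacco oxygen-evolving enhancer protein 2-2, and PSBQ (Nitab4.5_0002345g0070; Nt17, plus strand, 171219568 to 171221535) matches spinach enhancer protein 3. PsbP and PsbQ proteins help to hold calcium and chloride at the manganese cluster. PSBR (Nitab4.5_0000313g0040; Nt09, minus strand, 45558020 to 45561820) matches the 10 kDa polypeptide of tobacco, a small subunit tied to the binding of PsbP. Coordinates are those of the deposited table, and the genome build is named there only through the prefix of the gene identifiers.

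The remaining gene (Nitab4.5_0000220g0160; Nt19, plus strand, 34770038 to 34771267) is called the D2-annotated gene below. Its best match is psbD of Morus indica, the reaction centre protein D2, which with D1 carries the primary photochemistry. The listed locus is on a nuclear chromosome, unlike the plastid psbD gene. Reads from that locus and from plastid transcripts cannot be told apart in this table, so each of its values below is for the reads assigned to this identifier, whatever their source. Its span of 1230 bases equals its listed coding length, as in 16 of the 123 genes, while the other 4 members span 1793 to 3801 bases for coding lengths of 411 to 855. The table's Gene Ontology terms place the 4 other members, and not the D2-annotated gene, in the oxygen-evolving complex. Of the genes listed, 6 carry that term, the other two being a thylakoid lumenal 19 kDa protein and photosystem I subunit N. PSBO, PSBP2 and PSBQ also carry the term for calcium ion binding. PSBO and PSBQ share the chromosome Nt17, which holds 12 of the 123 genes, but lie 29008957 bases apart.

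Levels were compared between genes as FPKM, which the authors scaled to coding length and library total. PSBR was first of all 123 genes at each light intensity, with 21450 ± 129 FPKM at light 50, 19941 ± 398 at light 100 and 16027 ± 1110 at light 200 (SD, n = 3). PSBQ ranked 3 at each intensity, with 7842 ± 402, 6909 ± 180 and 5096 ± 546 FPKM. PSBO followed with 3237 ± 199, 3059 ± 199 and 2330 ± 285 FPKM, and PSBP2 with 1824 ± 171, 1682 ± 127 and 1430 ± 117 FPKM. The D2-annotated gene had 5.21 ± 0.84, 3.54 ± 0.57 and 2.88 ± 0.57 FPKM, placing it between 119th and 122nd in the table. The order PSBR, PSBQ, PSBO, PSBP2 and D2-annotated gene held in each of the 9 libraries. The narrowest gap was between PSBO and PSBP2, whose FPKM ratio ranged from 1.51 to 1.85 over the libraries.

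These genes took up a large part of the table's reads. Together the 5 members held 1.86% ± 0.053 of all counted reads at light 50, 1.71% ± 0.038 at light 100 and 1.33% ± 0.12 at light 200 (SD, n = 3). Their part of the reads of the 123 genes was 26.4% ± 1.25, 27.8% ± 0.67 and 26.2% ± 0.62 at the 3 intensities. The members' reads therefore fell as a share of the library, while their mean share of this chosen table was highest at light 100.

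The comparison of light 200 with light 50 covers the full range of light, and every member fell in it. PSBQ fell the most among the 4 abundant genes and PSBP2 the least, by 41.4% and 29.3%. Levels within a gene are given as CPM, read counts over the library size scaled with the authors' size factors. PSBO had 2054, 2051 and 1569 CPM in the light 200 libraries, against 2949, 2733 and 3052 CPM at light 50. PSBP2 had 1023, 1132 and 919.4 CPM at light 200, against 1434, 1341 and 1576 CPM at light 50. For both genes every light 200 library lay below every light 50 library. PSBQ had 3666, 3823 and 2958 CPM at light 200, against 6166, 5544 and 6118 CPM at light 50. PSBR had 6364, 6762 and 5610 CPM at light 200, against 9596, 9191 and 9049 CPM at light 50. These groups were also separate, and replicate 3 of light 200 was the lowest light 200 library for all 5 members, as it was for 84 of the 123 genes and for 39 of the 64 called lower.

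**Figure D1:**
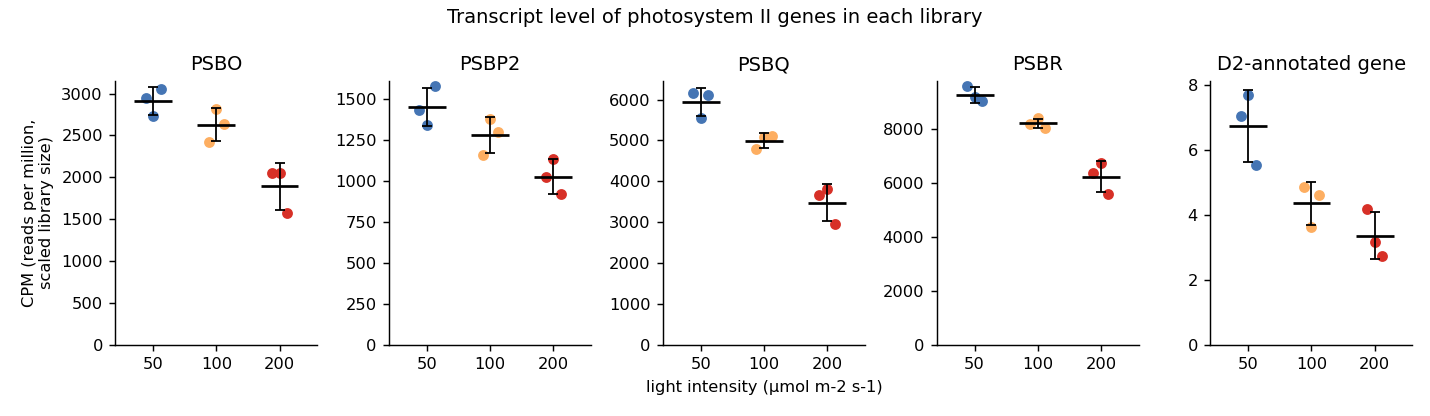
CPM (on scaled library sizes, linear axes from 0) of the 5 photosystem II genes by light intensity, each point 1 library, with the mean and SD of 3 libraries. The light 200 points lie below the light 50 points in every panel, for example at 2958 to 3823 against 5544 to 6166 CPM for PSBQ.

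The log2 change at light 200 against light 50 was -0.77 ± 0.11 (SE) for PSBQ, with an adjusted p of 3.74e-05 (edgeR's quasi-likelihood test, Benjamini-Hochberg method, all 123 genes). PSBO changed by -0.62 ± 0.12 (adjusted p = 0.000407, edgeR), PSBR by -0.57 ± 0.09 (adjusted p = 7.65e-05) and PSBP2 by -0.50 ± 0.12 (adjusted p = 0.00181). In bulk leaf RNA, fewer cells of a type and less RNA per cell cannot be told apart. Of all genes listed, 52.0% were called lower by the same test and 52.0% had light 200 libraries that all lay below those of light 50, so 5 of 5 members is read only against that selected background. The members' median log2 change was -0.62, against -0.58 over all 123 genes and -0.95 over the 64 genes called lower. PSBP2 and PSBR had the smallest falls among those 64 genes, PSBO had 7 genes with a smaller fall, and PSBQ had 19. The authors' deposited table marks all 5 as lower at light 200, beside 52.0% of its genes. Its genes were selected on such marks, so these are not separate evidence. The authors' adjusted p ran from 0.00013165 for PSBQ to 0.032703 for PSBP2.

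The D2-annotated gene had the fewest reads of the 5, between 47 and 114 per library. It had 4.17, 3.17 and 2.74 CPM at light 200, against 7.04, 7.68 and 5.52 CPM at light 50. The groups did not overlap, and the log2 change was -1.01 ± 0.25 (SE; adjusted p = 0.002, edgeR), with a 95% interval from -1.56 to -0.45. The lowest count of 47 reads has an exact Poisson interval of 34.5 to 62.5 reads at 95%, which covers counting error only.

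These falls depend on how libraries are scaled, and any scaling moves all genes alike. TMM, RLE and median centring were computed from this table, which was selected for change, although they assume that most genes do not change. Library totals count the reads of all genes, listed here or not. Relative to the authors' factors the median change of all genes shifted up by 0.15 with library totals, 0.29 with RLE, 0.43 with TMM and 0.58 with median centring, which by construction sets the median of this chosen table to about 0. Library totals left all 5 members called lower, beside 52.0% of the listed genes. RLE and TMM each left 4, beside 48.8% and 39.0%, with the call of PSBP2 lost (adjusted p = 0.0865 and 0.401, edgeR). Median centring left 0 of 5 called, beside 25.2%, and turned PSBR and PSBP2 to small positive values of 0.0089 and 0.079. Over the table the split of 58 genes higher and 64 lower became 59 and 31 with median centring. Without light 200 replicate 3 all 5 members remained called, as did all 64 genes called lower in the table. The members' log2 changes then ran from -0.87 for the D2-annotated gene to -0.43 for PSBP2.

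**Figure D2:**
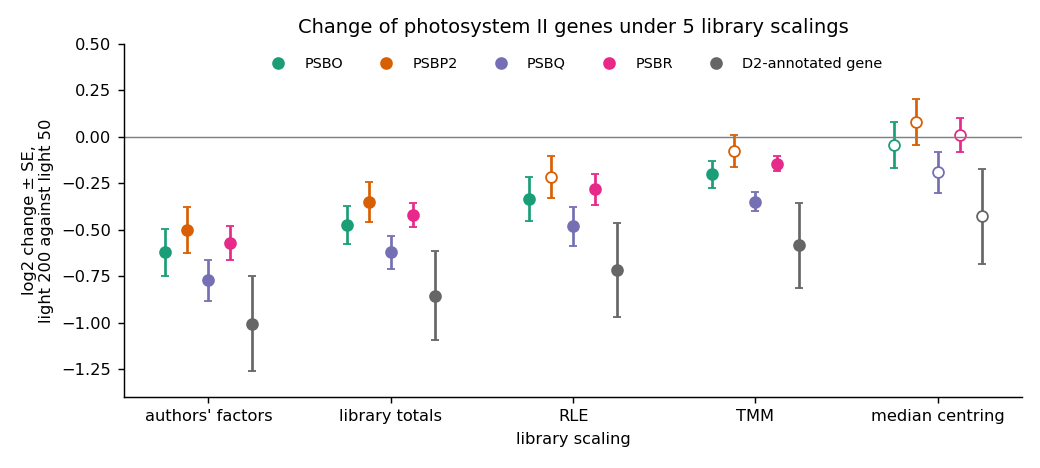
Log2 change (± SE) of each photosystem II gene at light 200 against light 50 under 5 ways of scaling the libraries, filled where the adjusted p in edgeR is under 0.05 and open otherwise. The changes move together, from -0.50 or below with the authors' factors to between -0.43 and 0.079 with median centring.

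The first doubling of light, from 50 to 100, brought differences of at most 0.25 on the log2 scale in the 4 abundant genes and a larger one in the D2-annotated gene. At light 100 PSBQ had 4787, 5086 and 5109 CPM, a log2 change of -0.25 ± 0.11 (SE) against light 50 that narrowly passed the threshold (adjusted p = 0.0491, edgeR). The D2-annotated gene had 4.86, 3.61 and 4.61 CPM at light 100 and fell by 0.62 ± 0.25 (SE) on the log2 scale (adjusted p = 0.035, edgeR). In both genes the light 100 libraries lay below those of light 50. PSBR had 8204, 8412 and 8064 CPM at light 100, also without overlap with light 50, but its log2 change of -0.17 did not pass (adjusted p = 0.0856, edgeR; 95% interval -0.37 to 0.02). PSBO, with 2423, 2819 and 2636 CPM at light 100, and PSBP2, with 1159, 1377 and 1296 CPM, overlapped their light 50 values. Their intervals, -0.42 to 0.12 and -0.45 to 0.09, include both no change and a fall of about the size seen in PSBQ.

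Of the listed genes, 40.7% were called lower in this comparison and 43.1% were lower without overlap, against 2 and 3 of the 5 members. PSBP2 was the median gene both of the members and of all 123 genes, so the 2 medians are the same value of -0.18. Their equality is therefore not a comparison of groups. This median was positive with TMM (0.10) and about 0 with median centring. The authors' deposited table marks none of the 5, and 12.2% of the table as lower. The authors' adjusted p was 0.88997 for PSBQ and 0.50523 for the D2-annotated gene. Adjustment over the 123 genes, which were selected as changed, raised the p of PSBQ only from 0.0407 to 0.0491 (edgeR). The 2 calls were not stable. Library totals left 1 of 5 called lower, beside 35.8% of the listed genes, and DESeq2 left 1, beside 38.2%. RLE and median centring each left 0, beside 31.7% and 15.4%. That of PSBQ was lost without light 50 replicate 1 or 3 (adjusted p = 0.124 and 0.126, edgeR), without light 100 replicate 1, 2 or 3 (0.136, 0.092 and 0.0897) and without light 200 replicate 1 (0.0647). That of the D2-annotated gene was lost without light 50 replicate 1 or 2 (0.0748 and 0.113) and without light 100 replicate 1, 2 or 3 (0.0614, 0.114 and 0.0678), while PSBR was called without light 200 replicate 3 (0.0147). With TMM the 4 abundant members had positive log2 changes between 0.035 and 0.14, of which that of PSBR was called as higher (adjusted p = 0.0334, edgeR), as were 47.2% of the listed genes, and the table's split of 52 genes higher and 50 lower became 58 and 13. With median centring that split was 56 and 19, and PSBO, PSBR and PSBP2 had positive changes of at most 0.035.

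In the second doubling, from 100 to 200, the estimated changes of the abundant members were larger than in the first, but the test of the difference between the steps passed for none of them (adjusted p from 0.513 to 0.791, edgeR). PSBQ changed by -0.52 ± 0.11 (SE; adjusted p = 0.00283, edgeR), PSBO by -0.47 ± 0.12 (adjusted p = 0.00899), PSBR by -0.40 ± 0.09 (adjusted p = 0.0044) and PSBP2 by -0.32 ± 0.12 (adjusted p = 0.0413). For these 4 genes every light 200 library lay below every light 100 library. The D2-annotated gene overlapped between the groups and was not called, with a log2 change of -0.38 (adjusted p = 0.198, edgeR; 95% interval -0.94 to 0.18). Thus 4 of 5 members were called lower, against 39.0% of the table, and 4 of 5 were lower without overlap, against 41.5%.

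The members' median was -0.40 in this step, against -0.20 over all genes and -0.53 over the 48 genes called lower. The authors' deposited table marks 2 of the 5, PSBQ (adjusted p = 0.016079) and PSBO (adjusted p = 0.045043), and 20.3% of the table as lower. PSBR and PSBP2 were not marked, with authors' adjusted p of 0.15461 and 0.42764. The call of PSBP2 was lost without light 50 replicate 2 (adjusted p = 0.0501, edgeR), light 100 replicate 2 or 3 (0.137 and 0.114) or light 200 replicate 1 or 3 (0.0989 and 0.0873). TMM, library totals and DESeq2 each left 3 members called lower, without PSBP2, beside 29.3%, 34.1% and 38.2% of the listed genes. RLE left 1, beside 13.8%, and median centring 0, beside 7.32%, with PSBP2 and the D2-annotated gene at small positive values of 0.078 and 0.014. The table's split of 26 genes higher and 48 lower became 43 and 36 with TMM, 42 and 42 with library totals, 45 and 17 with RLE and 51 and 9 with median centring. Its 74 calls numbered 40 when light 100 replicate 3 was left out, and 46 when light 200 replicate 1 was.

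**Figure D3:**
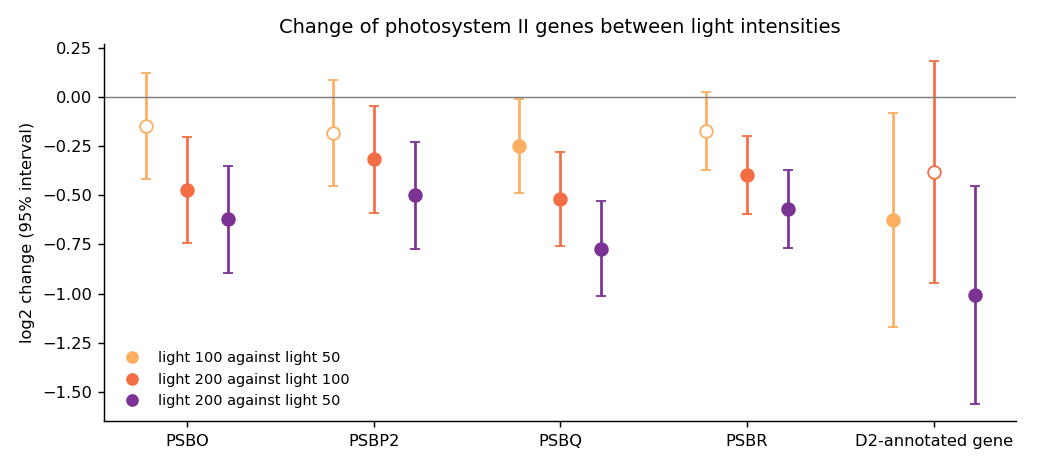
Log2 change and 95% interval of each photosystem II gene for light 100 against light 50, light 200 against light 100 and light 200 against light 50, filled where the adjusted p in edgeR is under 0.05, with the authors' size factors. The 4 abundant genes show the smaller change in the first doubling, for example -0.15 and -0.47 for PSBO, and their first-doubling changes are positive with TMM.

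Fitted as a linear trend, PSBQ fell by 23.5% per doubling of light on average, PSBO by 19.4%, PSBR by 18.0% and PSBP2 by 15.9%. On equally spaced log2 intensities with equal replicates, this slope rests almost wholly on light 200 against light 50. For PSBO the slope was -0.31, beside a full-range log2 change of -0.62. The trend is therefore not separate evidence from that contrast, and it does not show a fall in each doubling. The D2-annotated gene changed by -0.51 ± 0.12 (SE) on the log2 scale per doubling. All 5 trends were called (adjusted p from 6.03e-05 to 0.00167, edgeR), against 52.0% of the table called downward. With TMM 2 of the 5 trends were called, beside 36.6% of the listed genes, with RLE 4, beside 47.2% and without PSBP2 (adjusted p = 0.0719, edgeR), and with median centring 0, beside 26.0%, where PSBR and PSBP2 had small positive slopes of 0.0044 and 0.039. The table's split of 58 upward and 64 downward trends became 59 and 32 with median centring.

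The first doubling accounted for 23.9% of the full log2 change in PSBO, 30.4% in PSBR, 32.5% in PSBQ and 36.5% in PSBP2, but for 62.1% in the D2-annotated gene. Whether the doublings differed was tested by the step difference, in which the log2 change of the first doubling is subtracted from that of the second. It was -0.33 ± 0.21 (SE) for PSBO, -0.27 ± 0.19 for PSBQ, -0.22 ± 0.16 for PSBR, -0.13 ± 0.21 for PSBP2 and 0.24 ± 0.44 for the D2-annotated gene. None passed (adjusted p from 0.513 to 0.791, edgeR), none had an unadjusted p under 0.05, and DESeq2 called none either, beside 7.32% of the listed genes. In edgeR 2.44% of genes, 3 in number, had a called negative step difference. With TMM, which lowers the median step difference of all genes by 0.14, those of PSBO, PSBQ and PSBR were called (adjusted p = 0.0271, 0.013 and 0.00853), as were 23 genes of the table (18.7%). The call of unequal steps therefore depended on the scaling, and the step difference of PSBP2 was positive with RLE (0.029) and median centring (0.078).

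Ratios of reads between members within a library do not depend on scaling, and they show whether members changed by unequal amounts. The 10 pairs were tested for a slope on log2 light intensity with a two-sided exact permutation test over the 1680 assignments of the 9 libraries, adjusted over the 10 pairs. PSBQ fell relative to its partners in the oxygen-evolving complex. Its log2 ratio to PSBP2 was 2.04 ± 0.074 at light 50, 1.97 ± 0.081 at light 100 and 1.76 ± 0.078 at light 200 (SD, n = 3; exact p = 0.00595, adjusted p = 0.0357). Its ratio to PSBO was 1.03 ± 0.031, 0.93 ± 0.069 and 0.88 ± 0.042 (exact p = 0.0107, adjusted p = 0.0357). PSBR rose relative to PSBQ, with log2 ratios of 0.64 ± 0.082, 0.72 ± 0.060 and 0.85 ± 0.067 (exact p = 0.00833, adjusted p = 0.0357). In these 3 pairs the light 200 and light 50 libraries did not overlap.

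The sizes were modest. The ratio of PSBQ to PSBP2 at light 200 was 0.826 times that at light 50, that of PSBQ to PSBO 0.904 times, and that of PSBR to PSBQ 1.15 times. The other 7 pairs did not pass (adjusted p from 0.188 to 0.482, exact permutation test). Among them PSBO, PSBR and PSBP2 had slopes against each other between -0.064 and 0.029 per doubling. Pairs with the D2-annotated gene had larger slopes, between 0.12 and 0.25, and the widest scatter, with an SD within a group of up to 0.36. The 3 calls were close to the threshold. With 1 library left out, which leaves 560 assignments, 6 of the 9 tests called no pair and 3 called 1 pair. PSBQ over PSBO was called only without light 100 replicate 2, PSBQ over PSBP2 only without light 50 replicate 3 and PSBR over PSBQ only without light 50 replicate 2, and in the other fits their adjusted p reached up to 0.107. The slopes of these 3 pairs kept their sign in each of the 9 tests.

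**Figure D4:**
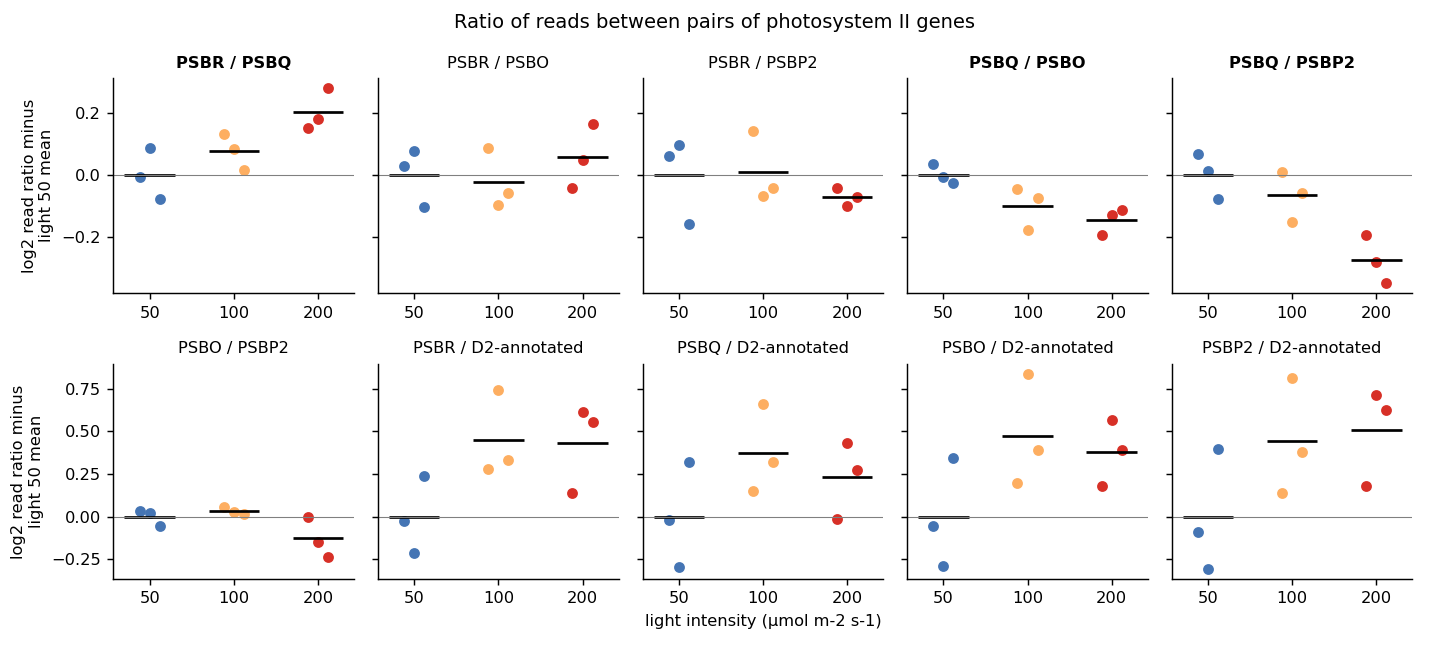
Log2 ratio of reads between each pair of photosystem II genes by light intensity, minus the mean of light 50, each point 1 library and each bar a group mean, with bold titles for the 3 pairs with adjusted p under 0.05 in the exact permutation test. PSBQ declines against PSBP2 and PSBO and PSBR gains on PSBQ, with differences of -0.28, -0.15 and 0.20 between the light 200 and light 50 means.

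The abundant members varied little between replicates. Their coefficient of variation within a group lay between 2.13% for PSBR at light 100 and 14.8% for PSBO at light 200, against 15.2% to 21.8% for the D2-annotated gene. These values include counting error, which is relatively largest for the D2-annotated gene with its few reads. The biological coefficient of variation estimated by edgeR was 0.112 for PSBR, the lowest of the 123 genes, 0.123 for PSBQ, 0.130 for PSBP2 and 0.132 for PSBO, against a median of 0.160 in the table. That of the D2-annotated gene was 0.172.

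Profiles over the 9 libraries were compared as the root mean square difference of log2 CPM, after each gene was centred on its own mean. The 4 abundant members lay 0.073 to 0.13 apart, and the D2-annotated gene lay 0.27 to 0.35 from each of them. These distances include counting error, which is relatively largest for the D2-annotated gene, with 47 to 114 reads per library. Its distances, and counts based on them, therefore do not by themselves show a different response to light. The nearest gene outside the complex to both PSBQ and PSBO was photosystem I reaction centre subunit XI (Nitab4.5_0001348g0130), at 0.054 and 0.085. PSBP2 was nearest to the isomerase CYP38 (Nitab4.5_0003337g0100), at 0.084. CYP38 is a lumen protein that in Arabidopsis is needed for the assembly of photosystem II. It had a log2 change of -0.59 ± 0.17 (SE; adjusted p = 0.00436, edgeR) at light 200 against light 50. PSBR was nearest to Nitab4.5_0000083g0050, which has no Swiss-Prot match, at 0.069. The D2-annotated gene was nearest to Tetraspanin-3 (Nitab4.5_0000888g0160), at 0.20, and 17 genes outside the complex lay closer to it than its nearest fellow member. That count was 5 for PSBQ, 2 for PSBR, 1 for PSBP2 and 0 for PSBO.

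Other genes of the light reactions fell as well at light 200 against light 50. All 5 photosystem I genes and all 9 light-harvesting antenna genes were called lower, as were 52.0% of all listed genes. The photosystem I and antenna medians were -0.97 and -0.90, beside -0.62 for photosystem II. The medians of both lists were negative under each scaling in all 3 comparisons between groups. Photosystem I genes ranged from -1.34 to -0.80, antenna genes from -2.0 to -0.80 and photosystem II genes from -1.01 to -0.50. The D2-annotated gene was the only photosystem II gene below -0.80, and the difference between the lists was not tested. Photosystem I subunit V (Nitab4.5_0001622g0160) had 382.1 ± 44.4 CPM at light 200 and 967.9 ± 89.0 at light 50, and chlorophyll a-b binding protein 16 (Nitab4.5_0000982g0200) had 283.2 ± 37.4 and 1133 ± 182 CPM (SD, n = 3). Their log2 changes were -1.34 and -2.0. In the first doubling 5 of 5 photosystem I and 9 of 9 antenna genes were called lower, with medians of -0.40 and -0.46, beside 2 of 5 for photosystem II. Of all listed genes, 40.7% were called lower in that step. In the second doubling the medians were -0.52 and -0.50, beside -0.40.

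The list for assembly and repair of photosystem II was drawn by product name only, and a role of each gene in either was not tested. It had 3 genes, all called lower at light 200 against light 50, beside 52.0% of all listed genes. They were the isomerase FKBP17-2 (Nitab4.5_0008639g0010), with a log2 change of -1.96 ± 0.29 (SE; adjusted p = 5.09e-05, edgeR), the thylakoid lumenal 19 kDa protein (Nitab4.5_0000634g0080) at -1.0, and the Protease Do-like 8 (Nitab4.5_0000274g0150) at -0.76. CYP38, described above, was not on this list and had a smaller fall (-0.59) than these 3 genes. Protease Do-like 8 belongs to a lumenal protease family that in Arabidopsis takes part in degrading damaged D1. All 3 protochlorophyllide reductases, which make chlorophyllide for chlorophyll synthesis, were called lower, with a median of -0.93. The photoprotection list, also drawn by product name only, had 2 genes. Zeaxanthin epoxidase (Nitab4.5_0002016g0120) fell by 0.67 ± 0.13 (SE) on the log2 scale, and Early light-induced protein (Nitab4.5_0000977g0030) rose by 2.44 ± 0.19. What these changes mean for photoprotection was not tested. Rubisco activase 1 (Nitab4.5_0004475g0020), the 1 gene of carbon fixation, changed by -0.70 ± 0.14 (SE). The list for plastocyanin, the cytochrome b6-f complex, ferredoxin and the ATP synthase had 0 genes.

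**Figure D5:**
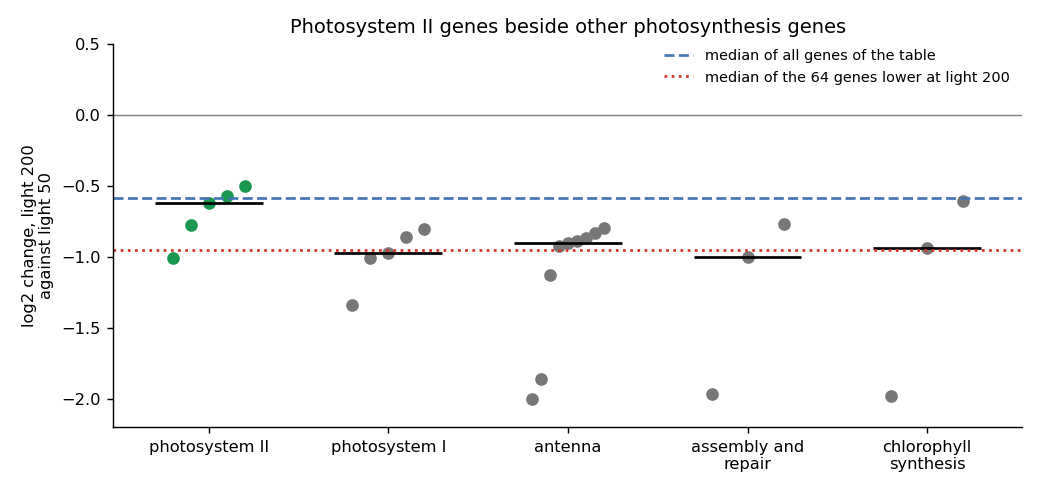
Log2 change at light 200 against light 50 of each gene in 5 lists, each point 1 gene and each bar a list median, with the medians of all 123 genes (-0.58) and of the 64 genes called lower (-0.95) as dashed and dotted lines. Photosystem II genes lie between -1.01 and -0.50, with a median of -0.62. The median of all genes includes 58 genes called higher. PSBR and PSBP2 turn positive with median centring.

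Markers of leaf tissue present in the table, the antenna, photosystem I and Rubisco activase genes, were expressed in every library. They were lower at light 200 than at light 50. The antenna genes summed to 13577 to 17352 against 27125 to 34270 CPM, and the photosystem I genes to 3232 to 4084 against 6482 to 7745 CPM. Rubisco activase had 34.0 to 35.8 against 56.0 to 58.1 CPM. Lists for other tissues matched 1 gene each, by product name only. The root list's berberine bridge enzyme-like 8 (Nitab4.5_0000009g0310) had 3.98 to 7.50 CPM at light 200 and 0.606 to 1.32 CPM at light 50. The lipid-transfer protein of the trichome list (Nitab4.5_0000125g0030) had 13.5 to 17.7 CPM at light 200 and 40.8 to 65.9 CPM at light 50. The tubulin beta-1 chain of the dividing tissue list (Nitab4.5_0001951g0080) had 28.6 to 38.2 CPM at light 200 and 79.1 to 126.7 CPM at light 50. None of these groups overlapped. The part of tissue composition in the changes of the photosystem II genes was not tested.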

How the data were processed

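RNA from 9 leaf samples was sequenced by the submitters from NEBNext Ultra libraries, a kit that does not mark strand, per the labels' protocols. CASAVA 1.7, HISAT and HTSeq are named in the submitters' processing notes. The table holds whole-number read counts per gene, as deposited, FPKM values made by the authors, mean normalised counts (averaged over replicates by the authors, once per comparison), and the authors' log2 fold changes, which run lower over higher light, with their p-values and adjusted p-values, per the file headers. Lengths in the deposited table are all multiples of 3 and are called coding lengths. The allotetraploid genome holds near-identical gene copies whose reads cannot be placed with certainty, so values of single genes are uncertain for that reason.

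Library totals were recovered from counts, FPKM and length. Size factors were recovered from the authors' mean normalised counts, with a relative error of at most 5.0e-10, and gave effective library sizes and CPM. The edgeR package (version 4.0.16, R 4.3.3) fitted the counts of all 9 libraries by glmQLFit and glmQLFTest, two-sided, without covariates beyond light intensity. filterByExpr kept all 123 genes, and p-values were adjusted by the Benjamini-Hochberg method at 0.05. The adjustment covered only these selected genes, so adjusted p-values are not false discovery rates over all genes measured. For ratios between members 0.5 reads were added to each count. Alternatives were TMM, RLE, library totals, median centring, no filter, DESeq2 1.42.0, a replicate block and leaving out each library. Replicates differed beyond sampling noise in each group (chi-square over its degrees of freedom from 23.6 to 102.4).

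The members, lists and tests were chosen with earlier results of these data known. Named genes were all members, for each list the called genes with the lowest p, higher and lower, and the gene nearest to each member. The reference gene table matched 0 identifiers, and sequences were not used here. The edgeR step was tested on simulated data.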

Additional observations from a re-analysis of the deposited data

How the results depend on the processing

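The full-range falls and the trends of the 5 members kept their calls in each of the 9 fits without 1 library, and with library totals, DESeq2, the replicate block and no filter. In each of these fits 64 of the 123 genes (52.0%) were called lower, in the full range and in the trend. The table was selected on the full-range contrast, on which the trend also rests, so this stability is not particular to the members. With median centring the members called numbered 0 for light 200 against light 50, 0 for light 100 against light 50, 0 for light 200 against light 100 and 0 for the trend. Of the listed genes 25.2%, 15.4%, 7.32% and 26.0% were called lower there, in that order. For the first doubling the 2 calls became 1 with TMM (higher), 0 with RLE, 1 with library totals, 1 with DESeq2, 1 with the replicate block, and 0 to 3 without 1 library. In those fits 13, 39, 44, 47 and 40 of the 123 genes were called lower with TMM, RLE, library totals, DESeq2 and the block. For the second doubling the 4 calls became 1 with RLE and 3 with TMM, library totals, DESeq2 (PSBP2 at an adjusted p of 0.0597) and the block. Of the listed genes 13.8%, 29.3%, 34.1%, 38.2% and 34.1% were called lower in these fits, in that order. For the trend the 5 became 2 with TMM and 4 with RLE, beside 36.6% and 47.2% of the listed genes. For the step difference the 0 became 3 with TMM, beside 18.7%. Step differences called in the table numbered 3, and 23 with TMM, 5 with library totals, 1 with median centring, 9 with DESeq2, 6 with the replicate block and 1 to 14 without 1 library (14 when light 50 replicate 1 was left out, 5 for light 100 replicate 3, and 1 each for light 100 replicate 2 and light 200 replicate 2). Calls in the second doubling lay between 40 and 80 without 1 library, and member ratios called between 0 and 1.

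Signs turned as follows, in log2 units. With TMM the first doubling gave 0.14 for PSBO, 0.11 for PSBR, 0.035 for PSBQ and 0.10 for PSBP2. With median centring it gave 0.035 for PSBO, 0.00996 for PSBR and 0.000448 for PSBP2, the second doubling 0.014 for the D2-annotated gene and 0.078 for PSBP2, the full range 0.0089 for PSBR and 0.079 for PSBP2, the trend 0.0044 for PSBR and 0.039 for PSBP2, and the step difference 0.078 for PSBP2. With RLE the step difference of PSBP2 was 0.029. The slope of PSBR over PSBO was -0.00042 without light 200 replicate 3, the lowest of a range up to 0.050. By construction these scalings shift all genes of a library alike.

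Between same-numbered libraries, correlations of deviations from group means ran from -0.44 to 0.55, over 0.1 in 4 of 9 pairs. Their median was 0.056, against -0.048 between libraries with different numbers. Of the 9 libraries, 4 correlated best with their own number, and whether same-numbered libraries are paired was not tested. With the replicate block PSBQ was not called in the first doubling (adjusted p = 0.0943, edgeR) nor PSBP2 in the second (adjusted p = 0.0714), and no other member's call changed. The D2-annotated gene, with 47 to 114 reads per library, had the widest intervals of the 5 members.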
